A study of Mus musculus with 14 samples.

Results

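The difference between 2 classes of Lmo2-induced mouse T-cell acute lymphoblastic leukaemia in their response to doxycycline (Dox) was measured over 12 of the 14 RNA sequencing libraries of the series. The libraries came from 3 leukaemias that the labels call independent (numbers VTL-33, VTL-44 and VTL-81) and 3 called evolving (numbers VTL-21, VTL-25 and VTL-153), each with 1 library with Dox and 1 without. The labels give these classes as each tumour's status with respect to Lmo2. Every tumour carried its own number, which joins its library with Dox to the one without. The leukaemias belong to the VTL model. Their cells were thawed and injected into C57BL/6-Rag1-/- recipients, mice that cannot rearrange antigen receptor genes and so lack mature B and T cells of their own but keep myeloid, erythroid and natural killer cells. Animals with Dox received it in food pellets at 600 mg/kg, and donor cells positive for both CD45.1 and CD45.2 were sorted from the spleen. All 12 libraries shared this host, this sort and the inducing oncogene. The labels do not say how Dox acts on Lmo2, give no age of the mice and name no cells that drive the transgene. The series design speaks of Dox activation, whereas Lmo2 RNA was lower with Dox in all 6 tumours, so the words with and without Dox are kept only as labels. For each gene the log2 change with over without Dox was estimated in each class, and the quantity reported is the change in the independent class minus the change in the evolving class. A positive difference therefore means that the level with Dox, relative to that without, was higher in the independent tumours.

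LMO2 is a bridging protein without DNA binding of its own. In blood progenitors it joins TAL1 or LYL1, which bind E-box motifs with an E protein, to GATA factors through LDB1, and this complex keeps progenitor genes active. Thymocytes normally silence Lmo2 and its partners as they commit to the T lineage, and forced Lmo2 expression holds thymocytes in an immature, self-renewing state that can become leukaemia.

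The listed genes held 18214415 to 24048281 counts per library, and mitochondrial genes held 1.62% to 6.01% of them. All 12 listed T cell markers, among them the CD3 chains, were detected in all 12 libraries, with sums of 4812 to 8563 CPM, which are counts scaled to a common library size. Several libraries need naming before the results. Among T cell receptor beta segments, VTL-25 was led by Trbv5 with Dox, with 99.6% of their counts, and by Trbv24 without Dox, with 78.7%. VTL-21 had Trbv24 in front in both libraries, but after it came Trbv13-2 with Dox and Trbv13-1 without. The other 4 pairs each shared their leading segment and the pairs VTL-44, VTL-33 and VTL-153 also the next one. Without Dox all 3 evolving tumours had Trbv24 in front and Trbv13-1 next, an order that no independent library had. Their shares were 84.6% and 13.9% in VTL-21, 78.7% and 19.7% in VTL-25, and 77.5% and 21.4% in VTL-153. Without Dox, VTL-153 and VTL-25 were close to each other: only 3 genes exceeded 20 CPM in 1 tumour while staying under 0.5 CPM in the other, and the remaining pairs of the 6 tumours had 21 to 130 such genes. B cell markers, of which 5 of 14 were in the table, summed to 7917 CPM in VTL-21 with Dox, against 592 CPM in VTL-21 without Dox, and to 31.6 to 787 CPM in the 10 libraries of the other tumours, mostly from Ighm and Igkc. Summed myeloid markers, 16 of 16 in the table and led by S100a9, Ngp and S100a8, ran from 261 to 3328 CPM with Dox and 105 to 2183 CPM without Dox in the independent tumours, and from 26.5 to 260.1 CPM with Dox and 34.8 to 338 CPM without it in the evolving tumours. In bulk RNA, fewer cells of a type and less RNA per cell cannot be told apart.

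Lmo2, the inducing oncogene, is reported first because it is the gene on which the model rests. Per library, in the order of tumours given above, the independent tumours had 1.32, 4.09 and 8.46 CPM with Dox and 600.1, 9.28 and 27.2 CPM without Dox. The evolving tumours had 3.24, 0.198 and 0.405 CPM with Dox and 303, 515 and 708 CPM without Dox. All 6 tumours had less Lmo2 RNA with Dox than without. VTL-44 and VTL-81 already had little without Dox. The difference between the class responses was 5.88 on the log2 scale (SE 2.66) and did not pass the edgeR test, with an adjusted p of 0.568. The changes per tumour overlapped between the classes, since that of VTL-33 (−8.36) lay among those of the evolving tumours (−9.61 to −6.34). Without VTL-44 and VTL-81 the difference was 0.20. Ikzf1, the gene of the lymphoid transcription factor Ikaros that the series title names, had a difference of −0.03 (SE 0.52, adjusted p = 0.998) by the same test, with changes of 0.06 to 0.46 in the independent and −0.77 to 1.34 in the evolving tumours.

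The Dox responses of the 2 classes differed for 15 of 12360 tested genes, which is 0.121% of them, by edgeR's quasi-likelihood test with Benjamini-Hochberg adjustment at 0.05. In 6 genes (0.0485%) the difference was positive: Pcdh7, Cpa3, Mdga1, Nfix, Trim36 and Fam102b. In 9 genes (0.0728%) it was negative: Smyd1, Ctla4, Sdc1, Icos, Foxb1, Clstn1, Arhgef10l, Pou6f1 and Rere. The sizes ran from 1.81 for Rere to 9.61 for Pcdh7, and the adjusted p from 0.0135 for Mdga1 to 0.0486 for Ctla4. At an unadjusted p of 0.05, 1178 genes (9.53%) would pass. In each of the 15 the fitted change was larger in the evolving than in the independent class. The median size of the change over the 15 was 0.143 in the independent and 4.61 in the evolving tumours, against 0.129 and 0.264 over all tested genes. The independent change stayed under 1 log2 unit in 13 of the 15, with Pcdh7 (2.08) and Smyd1 (−1.02) as exceptions. For all 15 the changes of the 3 independent tumours lay entirely to one side of those of the 3 evolving tumours, as they did for 15.1% of all tested genes (7.85% with the independent changes above and 7.22% with them below). Per tumour, 7.00%, 8.63% and 9.16% of all tested genes changed by more than 1 log2 unit in the 3 independent tumours, against 16.2%, 20.7% and 18.1% in the 3 evolving tumours, in ascending tumour number. The count changed with the tumours used: by edgeR it was 0 without VTL-44, VTL-33, VTL-81 or VTL-25 (unadjusted p under 0.05 for 936, 829, 980 and 1045 genes), 3 without VTL-153 (Mdga1, Sdc1 and Abcb10, a mitochondrial transporter gene outside the 15), and 58 without VTL-21, 13 of them among the 15. It was 1, Sbf2, without the replicate block that joins each tumour's libraries. By DESeq2 it was 549, which held all 15, and by limma voom with the spread weighted per class it was 0. The sign of each of the 15 differences was the same in all 18 alternative settings, and without VTL-25 the 15 adjusted p ran from 0.108 to 0.116.

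**Figure D1:**
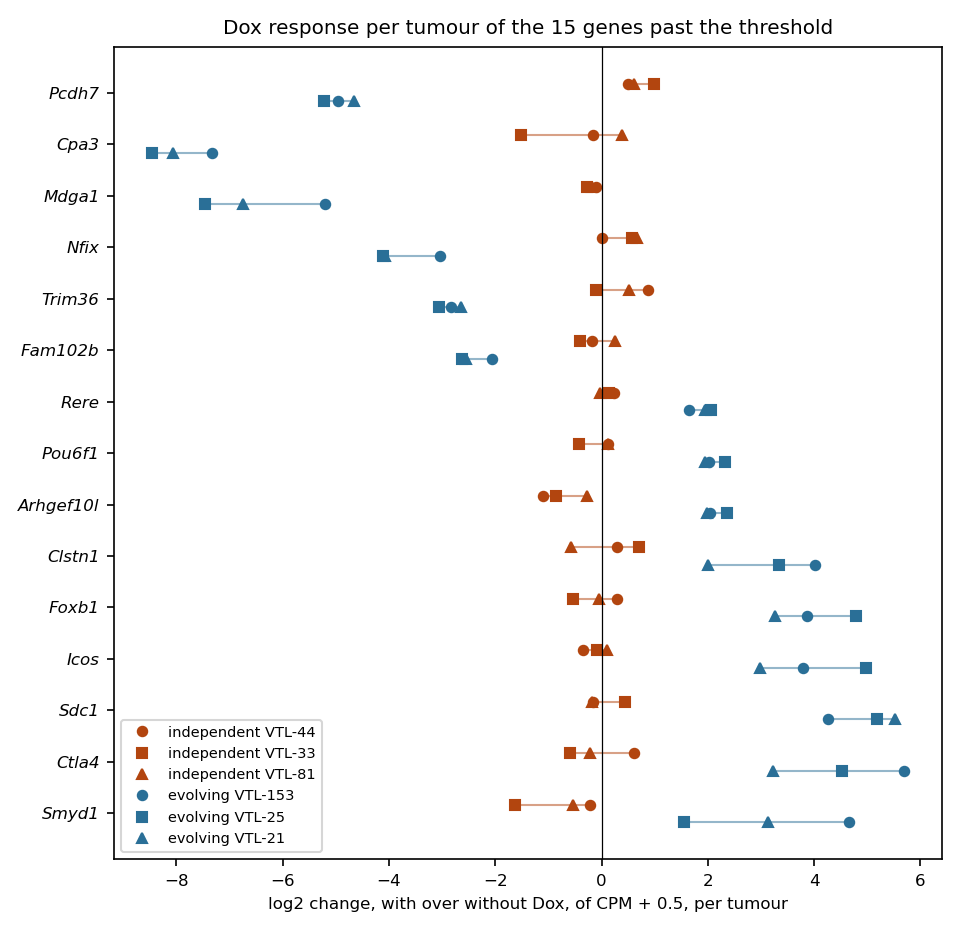
Log2 change with over without Dox (x axis, of CPM + 0.5) for each of the 15 genes that passed the test, with 1 point per tumour and a line over the range of a class. Independent tumours (orange) mostly lie near 0, and are farthest from it in VTL-33 for Smyd1 (−1.63) and Cpa3 (−1.51). Evolving tumours (blue) lie to the left for the 6 genes at the top and to the right for the 9 below. The classes do not overlap in any gene.

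Among the genes with a positive difference, 2 belong to the list of immature thymocyte and early progenitor genes. Cpa3 (ENSMUSG00000001865, chr3:20215620-20242181, minus strand) encodes a carboxypeptidase of mast cells that is also made in early haematopoietic progenitors. Its levels were 4.94, 0.876 and 5.86 CPM with Dox and 15.0, 1.04 and 4.35 CPM without Dox in the independent tumours, and 0.442, 0.198 and 0 CPM with Dox and 250.3, 246 and 80.4 CPM without it in the evolving tumours. The evolving tumours thus held both the highest levels, without Dox, and the lowest, with Dox, and the independent tumours lay between them in all 6 libraries. The difference was 9.35 (SE 0.79, adjusted p = 0.0413), from fitted changes of −0.52 in the independent and −9.87 in the evolving tumours. With Dox the 3 evolving libraries held 13 Cpa3 counts in all, so that this size is imprecise. It was 9.15 without VTL-25 and 10.19 without VTL-21. Summed myeloid markers moved in the same direction in VTL-153 (26.5 CPM with Dox, 299 CPM without) and VTL-25 (31.6 and 338 CPM). They moved in the opposite direction in VTL-21 (260.1 and 34.8 CPM), where Cpa3 was also under 1 CPM with Dox. The part of myeloid cells in the Cpa3 difference was not tested.

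Nfix (ENSMUSG00000001911, chr8:84699876-84800344, minus strand) encodes a nuclear factor I transcription factor expressed in haematopoietic stem and progenitor cells. The independent tumours had 2.38, 3.65 and 7.30 CPM with Dox and 1.43, 3.62 and 4.44 CPM without Dox, and the evolving tumours had 1.57, 0.743 and 0.556 CPM with Dox and 34.6, 20.9 and 8.15 CPM without Dox. Levels of the classes did not overlap in either state: the evolving tumours were above all independent ones without Dox and below all of them with Dox. Its difference was 4.87 (SE 0.50, adjusted p = 0.0445). The Nfix locus overlaps Lyl1, which lies on the opposite strand and encodes a partner of LMO2, and since the strand setting of the counting was not given, reads of one may have been counted for the other. Lyl1 itself had a difference of 6.05 (SE 1.24, adjusted p = 0.149) and did not pass. Nfix passed in none of the fits that left out a single tumour, with adjusted p from 0.0504 without VTL-21 (difference 4.84) to 0.154.

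RefSeq promoters (build GRCm38.p6, 250 bases before to 50 after a transcription start) were available for 12 of the 15 genes. They were searched on both strands for the letters CANNTG of E-boxes, the letters GATAA bound by GATA factors, the letters TGTGGT bound by RUNX factors, the letters TGGGAA bound by Ikaros and the letters TTCNNNGAA bound by STAT factors, and matches of different motifs could overlap. The promoters of Cpa3 (chr3:20242132-20242431, minus strand) and Nfix (chr8:84772826-84773125, minus strand, 1 of its 4 listed starts) are shown because these 2 progenitor genes held the 2 GATA matches found, each in a promoter that also holds an E-box match, the other motif read by the LMO2 complex. Mdga1 (chr17:29887833-29888132, minus strand), with the smallest p, is shown as a promoter with no match to any of the 5. Capitals mark CANNTG or GATAA on either strand.

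Cpa3: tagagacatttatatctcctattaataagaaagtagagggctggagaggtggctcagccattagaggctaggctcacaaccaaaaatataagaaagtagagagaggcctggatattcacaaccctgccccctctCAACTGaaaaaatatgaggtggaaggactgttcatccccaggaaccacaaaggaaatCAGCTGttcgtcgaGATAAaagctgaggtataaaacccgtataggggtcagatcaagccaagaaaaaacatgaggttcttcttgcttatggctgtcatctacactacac
Nfix: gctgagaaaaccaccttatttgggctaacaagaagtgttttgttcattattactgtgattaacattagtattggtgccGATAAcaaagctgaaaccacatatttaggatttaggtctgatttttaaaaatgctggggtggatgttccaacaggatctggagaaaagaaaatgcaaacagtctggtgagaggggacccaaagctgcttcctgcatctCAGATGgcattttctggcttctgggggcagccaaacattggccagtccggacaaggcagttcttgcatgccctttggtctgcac
Mdga1: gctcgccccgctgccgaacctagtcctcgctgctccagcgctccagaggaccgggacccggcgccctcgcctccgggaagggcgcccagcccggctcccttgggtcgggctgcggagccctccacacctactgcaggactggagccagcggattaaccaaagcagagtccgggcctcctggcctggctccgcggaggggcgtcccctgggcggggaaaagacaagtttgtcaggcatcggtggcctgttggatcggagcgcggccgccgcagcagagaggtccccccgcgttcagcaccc

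Of the 12 genes with a promoter, 7 held an E-box match in at least 1, 2 a GATA match, 3 a RUNX match, 3 an Ikaros match and 1 a STAT match. Counted per promoter, as in the shares that follow, matches were found in 9, 2, 4, 3 and 1 of 16 in the same order. Over all 32851 RefSeq promoters of this length the shares with a match were 72.3%, 25.4%, 16.8%, 25.6% and 8.30% in the same order. These matches describe letters in a short window and say nothing of whether a factor was bound there.

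Adhesion molecules made up another 2 of the 6 positive genes. Mdga1 (ENSMUSG00000043557, chr17:29827949-29970087, minus strand), a membrane-anchored immunoglobulin-type adhesion protein best known from the nervous system, had the smallest p of all genes. It stood at 0.132, 0.146 and 0.166 CPM with Dox and 0.261, 0.198 and 0.259 CPM without Dox in the independent tumours, which is 3 to 6 counts per library, and at 0.196, 0.297 and 0.101 CPM with Dox and 74.4, 140.2 and 21.6 CPM without it in the evolving tumours. The evolving tumours without Dox were the only 3 of the 12 libraries with more than 1 CPM. The difference was 7.80 (SE 0.49, adjusted p = 0.0135) and ranged from 7.48 to 8.04 when each tumour was left out in turn. An antisense gene, Gm16758, overlaps Mdga1 and is in the table, so reads of the pair may not have been told apart. Pcdh7 (ENSMUSG00000029108, chr5:57717967-58133230, plus strand), a protocadherin, had a similar pattern: 1.01, 0.341 and 0.332 CPM with Dox and 0.261, 0.0992 and 0.0431 CPM without in the independent tumours, and 0.0982, 0.248 and 0 CPM with Dox and 14.7, 27.5 and 15.1 CPM without in the evolving tumours. Its difference, 9.61 (SE 1.03, adjusted p = 0.0445), was the largest of the 15 and combined an estimate of 2.08 in the independent with −7.53 in the evolving tumours. The independent libraries held 36 Pcdh7 counts with Dox and 9 without, so this size rests on few reads.

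The remaining positive genes were expressed in every library. Trim36 (ENSMUSG00000033949, chr18:46165300-46212607, minus strand), a RING-type ubiquitin ligase, ranged over 6.91 to 10.4 CPM with Dox and 4.70 to 11.2 CPM without Dox in the independent tumours, and over 3.34 to 6.29 CPM with Dox and 26.9 to 43.5 CPM without it in the evolving tumours, with a difference of 3.43 (SE 0.38, adjusted p = 0.0445). Fam102b (ENSMUSG00000040339, chr3:108970997-109027607, minus strand) ranged over 35.1 to 113 CPM with and 29.2 to 129 CPM without Dox in the independent tumours, and over 28.8 to 43.4 CPM with and 153.5 to 257 CPM without Dox in the evolving tumours, with a difference of 2.32 (SE 0.25, adjusted p = 0.0445). Levels of Trim36 separated the classes in both states, whereas those of Fam102b overlapped with Dox.

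**Figure D2:**
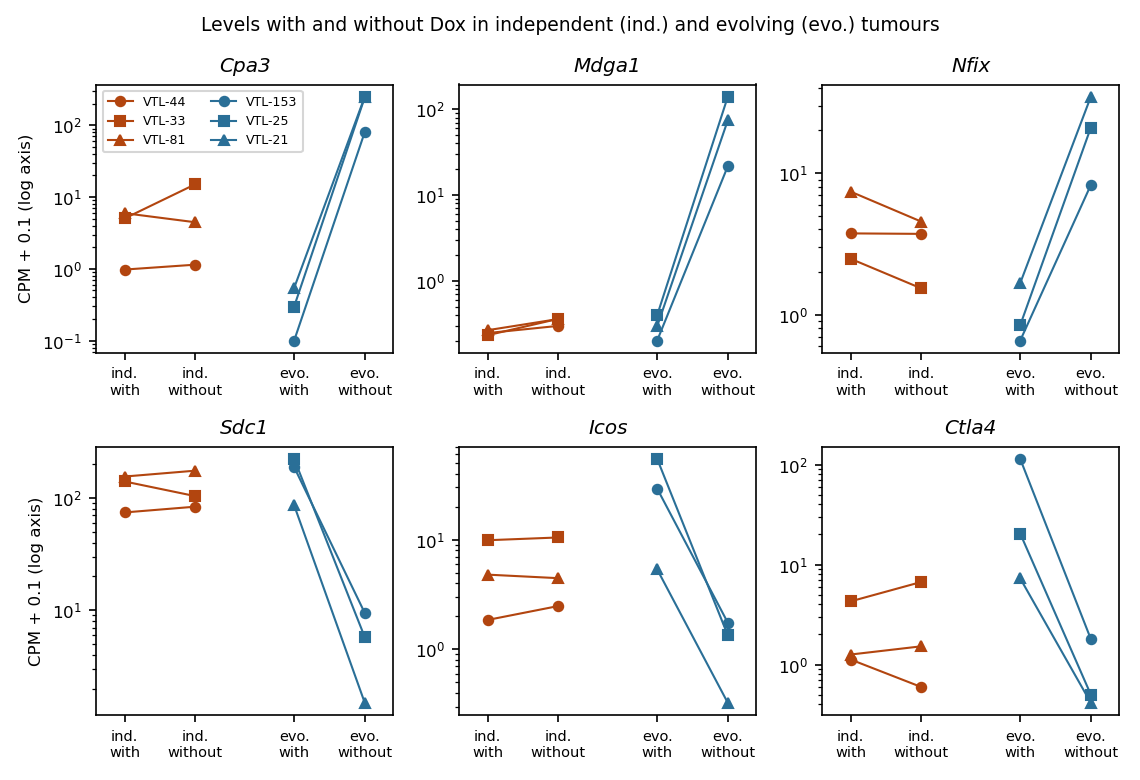
Levels of 3 genes with a positive (top) and 3 with a negative difference (bottom), in CPM + 0.1 on a log axis, with a line joining the 2 libraries of each tumour. In each gene the lines of the independent tumours (orange) are less steep than those of the evolving tumours (blue). For Cpa3 the evolving lines cross the whole independent range, at 0.442, 0.198 and 0 CPM with Dox and 250.3, 246 and 80.4 CPM without. In the other genes drawn, at least 1 evolving line begins or ends within the independent range. Cpa3 in VTL-33 was not flat (4.94 CPM with Dox and 15.0 CPM without).

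The 9 genes with a negative difference included 2 receptors of the CD28 family, through which T cells receive signals beside that of the antigen receptor. Ctla4 (ENSMUSG00000026011, chr1:60887000-60915832, plus strand), the inhibitory receptor that competes with CD28 for its ligands, stood at 4.19, 1.02 and 1.16 CPM with Dox and 6.60, 0.496 and 1.42 CPM without Dox in the independent tumours. In the evolving tumours it stood at 7.17, 20.3 and 114 CPM with Dox and 0.315, 0.401 and 1.70 CPM without Dox. Every evolving tumour with Dox was above every other library, while without Dox the classes overlapped, and Ctla4 was the only 1 of the 15 for which they did. The difference was −5.51 (SE 0.64, adjusted p = 0.0486). Icos (ENSMUSG00000026009, chr1:60977927-61000320, plus strand), an inducible costimulatory receptor, stood at 9.79, 1.75 and 4.70 CPM with Dox and 10.4, 2.38 and 4.35 CPM without Dox in the independent tumours and at 5.25, 54.4 and 29.1 CPM with Dox and 0.225, 1.24 and 1.65 CPM without it in the evolving tumours. Its levels with Dox overlapped between the classes, since VTL-21 had less than VTL-33. The difference was −4.85 (SE 0.49, adjusted p = 0.0445), from changes of −0.13 in the independent and 4.71 in the evolving tumours. Cd28, the main costimulatory receptor of the family, lies beside both genes. Its difference of −2.18 (SE 0.38, adjusted p = 0.108) did not pass, although the changes of the classes did not overlap (0.14 to 0.54 in the independent and 1.96 to 3.30 in the evolving tumours). The 3 genes lie in the order Cd28 (chr1:60716800-60773359), Ctla4 and Icos on the plus strand, with 114 kb between Cd28 and Ctla4 and 62.1 kb between Ctla4 and Icos. The predicted gene Gm11579, between Cd28 and Ctla4, had a difference of −0.13 (SE 1.18, adjusted p = 0.994), and no tested gene lies between Ctla4 and Icos. The Ctla4 promoter (chr1:60908775-60909074, plus strand) is shown for this locus, with its 2 E-box matches in capitals and no match to the other 4 motifs, whereas no promoter of Icos was at hand.

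Ctla4: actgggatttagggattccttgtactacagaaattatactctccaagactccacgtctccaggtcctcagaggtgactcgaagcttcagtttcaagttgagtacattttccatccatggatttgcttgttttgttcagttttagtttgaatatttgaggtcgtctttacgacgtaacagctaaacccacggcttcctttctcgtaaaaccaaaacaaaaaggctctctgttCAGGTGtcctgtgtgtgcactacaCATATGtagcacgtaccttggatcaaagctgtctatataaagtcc

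Over the whole list of costimulatory and inhibitory receptors, 18 of 20 were tested. None had a positive difference that passed and 2 had a negative one, against 0.0485% and 0.0728% of all tested genes. Below 0 were 13 estimates and above it 5, against 49.6% and 50.4% of all tested genes. The median was −1.14, against 0.00336 over all tested genes. The list did not move as a block: Cd96 (−1.53, SE 0.25, adjusted p = 0.0943) and Lag3 (−3.30), both restraining receptors, had estimates below 0, while Tigit (3.01) and Cd27 (1.13) had estimates above 0, and none of these 4 passed.

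Sdc1 (ENSMUSG00000020592, chr12:8771323-8793715, plus strand), the cell-surface heparan sulfate proteoglycan syndecan-1, stood at 140.4, 74.3 and 155 CPM with Dox and 104, 83.7 and 175 CPM without Dox in the independent tumours and at 86.0, 223 and 189 CPM with Dox and 1.39, 5.65 and 9.35 CPM without it in the evolving tumours. Without Dox the evolving tumours had 1.39 to 9.35 CPM against a lowest independent level of 83.7 CPM, and with Dox they lay within or above the independent range. The difference was −5.11 (SE 0.43, adjusted p = 0.0413). Sdc1 passed without VTL-21 (adjusted p = 0.0219) and without VTL-153. It did not pass when any other single tumour was left out (adjusted p = 0.108 without VTL-25, and at most 0.133). Sdc1 also marks plasma cells. Summed B cell markers in VTL-153 were 198 CPM with Dox and 148 CPM without, in VTL-25 715 and 149 CPM, and in VTL-21 7917 and 592 CPM. Their part in the result was not tested. Other syndecans did not pass, with differences of 4.15 for Sdc4 and 0.32 for Sdc3. The granule proteoglycan gene Srgn had a difference of 2.64 (SE 0.51, adjusted p = 0.140).

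Foxb1 (ENSMUSG00000059246, chr9:69757710-69760940, minus strand), a forkhead transcription factor known from the developing brain, stood at 14.7, 28.6 and 27.1 CPM with Dox and 21.6, 23.4 and 28.2 CPM without Dox in the independent tumours and at 10.4, 39.9 and 22.1 CPM with Dox and 0.629, 0.961 and 1.05 CPM without it in the evolving tumours. The 3 evolving libraries without Dox were the only ones below 2 CPM. Its difference of −4.72 (SE 0.45, adjusted p = 0.0413) was the only one to pass among 14 tested forkhead genes. Next in that list was Foxo1, a regulator of T cell quiescence, at −0.89 (SE 0.30, adjusted p = 0.370). The antisense gene B230323A14Rik overlaps Foxb1 and is in the table. Smyd1 (ENSMUSG00000055027, chr6:71213940-71322233, minus strand), a histone methyltransferase of heart and skeletal muscle, stood at 1.68, 7.84 and 0.442 CPM with Dox and 6.25, 9.23 and 0.862 CPM without Dox in the independent tumours and at 5.06, 1.09 and 32.3 CPM with Dox and 0.135, 0.0401 and 0.800 CPM without it in the evolving tumours. Each evolving tumour had more Smyd1 with Dox than without, and each independent tumour had less. Levels with Dox overlapped between the classes, and VTL-25 without Dox held 1 count. Krcc1, a protein-coding gene on the opposite strand, overlaps Smyd1 and is in the table, with a difference of −0.019 (SE 0.33, adjusted p = 0.998). Cd8b1 (chr6:71322788-71337494, plus strand), a CD8 coreceptor gene, begins just beyond the Smyd1 start. Its difference had the same sign as that of Smyd1, at −2.80 (SE 0.56, adjusted p = 0.142), and did not pass. The Smyd1 difference was −6.14 (SE 0.67, adjusted p = 0.0445).

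The POU factor gene Pou6f1 (ENSMUSG00000009739, chr15:100575318-100599984, minus strand) and the guanine nucleotide exchange factor gene Arhgef10l (ENSMUSG00000040964, chr4:140514485-140666012, minus strand) differed by smaller amounts at higher levels. Pou6f1 ranged over 46.8 to 76.3 CPM with Dox and 42.7 to 72.8 CPM without Dox in the independent tumours, and over 84.6 to 143 CPM with Dox and 19.2 to 34.8 CPM without it in the evolving tumours (difference −2.18, SE 0.23, adjusted p = 0.0445). For Arhgef10l the ranges were 74.6 to 156 CPM with Dox and 135 to 246 CPM without Dox in the independent tumours, and 152.5 to 298 CPM with Dox and 29.4 to 74.5 CPM without it in the evolving tumours (difference −2.88, SE 0.26, adjusted p = 0.0413). Arhgef10l moved in opposite directions in the classes, with changes of −1.10 to −0.26 in the independent and 1.99 to 2.36 in the evolving tumours.

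The last 2 genes lie near each other on chromosome 4. Clstn1 (ENSMUSG00000039953, chr4:149586468-149648899, plus strand), a calsyntenin of the cadherin superfamily, stood at 49.6, 107 and 76.5 CPM with Dox and 30.2, 88.1 and 114 CPM without Dox in the independent tumours and at 1.87, 61.7 and 142 CPM with Dox and 0.0899, 5.69 and 8.30 CPM without it in the evolving tumours. VTL-21 differed from the others in level, with far less Clstn1 in both states, at 38 counts with Dox and 2 without. Its change of 2.00 had the same sign as those of the other evolving tumours. At so few counts the constant added to CPM makes this change smaller than the ratio of the levels. Its size therefore does not show a weaker response in VTL-21. The difference was −3.68 (SE 0.41, adjusted p = 0.0445). Rere (ENSMUSG00000039852, chr4:150281646-150621966, plus strand), an atrophin-family nuclear corepressor, stood at 27.5, 68.5 and 91.4 CPM with Dox and 24.8, 58.4 and 92.9 CPM without Dox in the independent tumours and at 41.0, 57.9 and 49.3 CPM with Dox and 10.3, 13.6 and 15.3 CPM without it in the evolving tumours, with a difference of −1.81 (SE 0.20, adjusted p = 0.0445), the smallest of the 15. Rere passed in none of the fits that left out a single tumour, with adjusted p from 0.0564 without VTL-21 to 0.205. Between Clstn1 and Rere lie 633 kb with 6 tested genes, looked at after their values were seen and so given without a test. All 6 had estimates below 0, with a median of −1.14: Slc25a33 (−2.09), a mitochondrial pyrimidine nucleotide carrier, Pik3cd (−1.53), the leukocyte PI3K catalytic subunit, Eno1 (−1.19), the glycolytic enolase, Spsb1 (−1.09), Tmem201 (−0.72) and H6pd (−0.57). None passed the threshold over all genes, and 4 had an unadjusted p under 0.05. The run of estimates below 0 did not begin at Clstn1: all 10 tested genes directly before it were below 0 as well (median −0.39), among them Kif1b, a kinesin motor gene (−1.58, adjusted p = 0.117), and Ctnnbip1, an inhibitor of beta-catenin (−1.78, adjusted p = 0.553). Of the 20 genes farther out in the 2 Mb before Clstn1, 7 were below 0, which makes 17 of 30 in that window (median −0.04), and in the 2 Mb after Rere 11 of 18 (median −0.07).

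**Figure D3:**
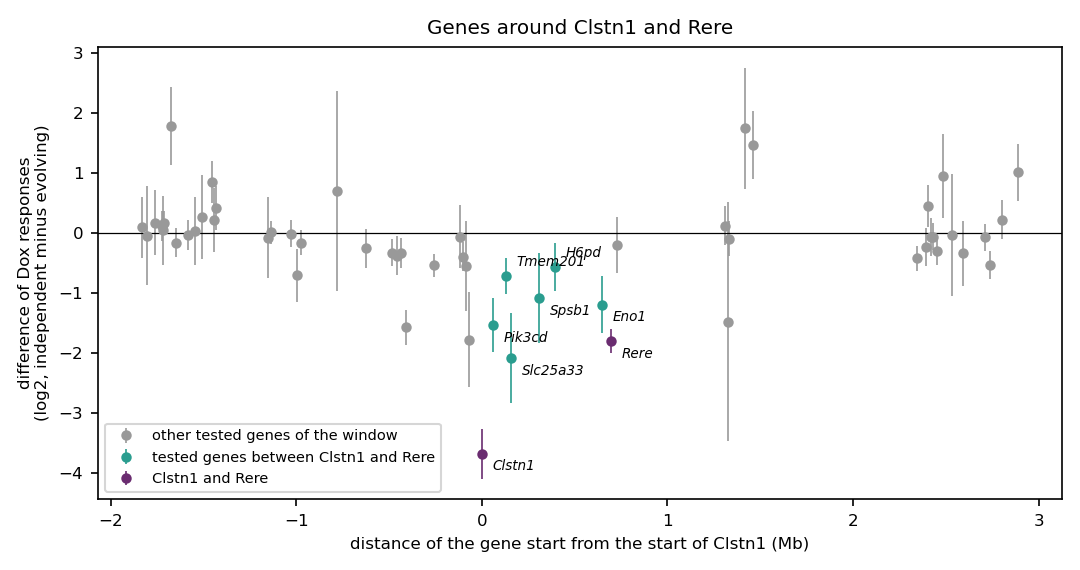
Difference of Dox responses (y axis, log2, independent minus evolving, bars 1 SE) of the tested genes around Clstn1 and Rere, against the distance of the gene start from that of Clstn1 in Mb (x axis). Clstn1, Rere (purple) and the 6 genes between them (green) all lie below 0, as do the 10 genes (grey) directly before Clstn1, while over the whole 2 Mb on either side the medians are −0.04 and −0.07.

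Where the classes stood with and without Dox was compared for the same 15 genes by the gap between their mean log2(CPM + 0.5), independent minus evolving. Without Dox the levels of the classes did not overlap in 14 of the 15, the exception being Ctla4, against 23.5% of all tested genes. With Dox they did not overlap in 6 (Cpa3, Nfix, Pou6f1, Pcdh7, Trim36 and Ctla4), against 9.68% of all tested genes. The gap was smaller with Dox than without in 13 of the 15, against 53.9% of all tested genes, and Icos and Ctla4 were the exceptions. Sdc1 is an example, with a gap of −0.38 with Dox and 4.57 without, as is Mdga1, with −0.10 and −6.38. In 11 of the 15 the gap changed sign. Clstn1, Rere and Foxb1 kept a gap above 0 in both states and Mdga1 one below 0. For Cpa3 the gap was 2.39 with Dox and −5.13 without. The gaps and the difference of responses are made from the same 12 libraries, so the gaps describe the difference and are not separate support for it.

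**Figure D4:**
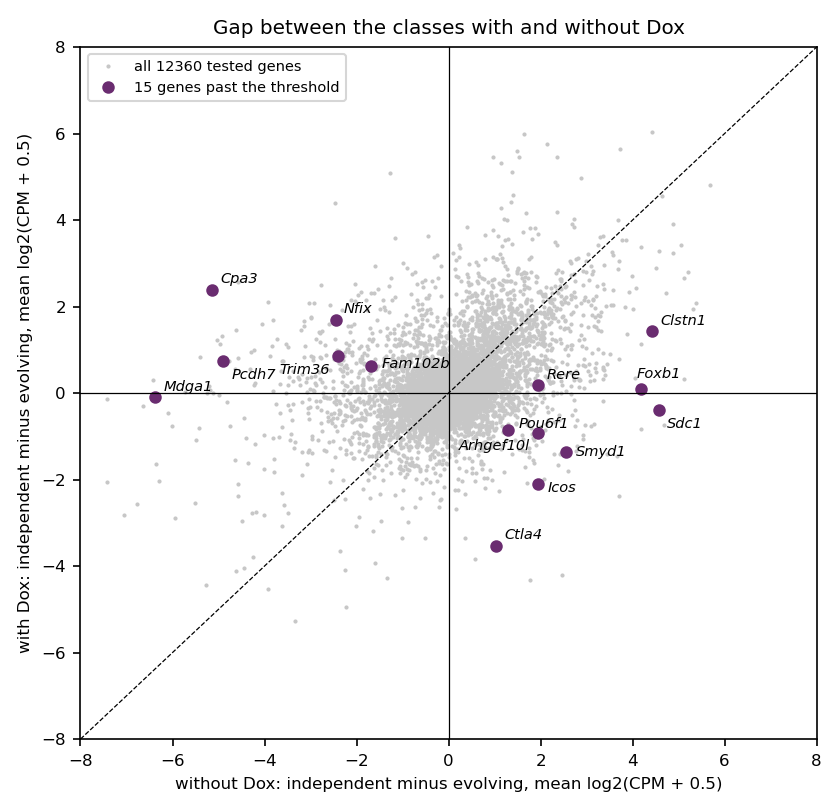
Gap between the classes (independent minus evolving, mean log2 of CPM + 0.5) with Dox (y axis) against without Dox (x axis) for all 12360 tested genes (grey) and the 15 that passed (purple). The dashed line marks equal gaps, and the 6 positive genes lie above it on the left and the 9 negative genes below it on the right, with 13 of the 15 nearer to 0 with Dox than without.

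Genes of immature thymocytes and early progenitors had a positive estimate in all 15 tested of 20 listed, against 50.4% of all tested genes, and a median difference of 3.11. Cpa3 and Nfix passed, 2 of 15, against 0.0485% of all tested genes. The list was chosen with earlier results of these data known, and its estimates are a description. Median changes with Dox were 0.49, −0.64 and 1.79 in the independent tumours and −0.07, −3.41 and −2.14 in the evolving tumours, so that VTL-21 lay above the other evolving tumours. Hhex, a homeobox factor of blood progenitors, had the next smallest p after the 2 that passed, at 8.06 (SE 1.55, adjusted p = 0.140). Hhex passed without VTL-21 (10.38, adjusted p = 0.0449), but not when any other single tumour was left out (adjusted p up to 0.398). Il7r, the receptor chain that thymocyte progenitors need to survive, had 3.11, Kit, the stem cell factor receptor, 4.63, and Flt3, the receptor of multipotent progenitors, 0.43. Mpo (3.82), Tyrobp (2.56) and Spi1 (2.55) of this list are also myeloid genes, and 14 of the 16 myeloid markers had a positive estimate, with a median of 2.94 and none past the threshold. Their part in the list's median was not tested. In the list of the LMO2 complex and its associated genes, 11 of 12 tested estimates were above 0, none passed, and the median was 3.30. Erg, an ETS factor of stem cells, had 10.30 (adjusted p = 0.154), Nfe2, an erythroid and megakaryocyte factor, 5.14, and Cdk6, a cell cycle kinase, 1.16. Ldb1, the constant scaffold of the complex, was near 0 (0.08), and Lmo4, a relative that competes for LDB1, was the 1 below 0 (−1.01). Lyl1, Hhex and Kit stand in both lists. Summed erythroid markers, 9 of 14 in the table, ran from 346 to 443 CPM with and 273 to 362 CPM without Dox in the independent tumours, and from 362 to 474 CPM with and 167 to 289 CPM without Dox in the evolving tumours. Most of each sum was Tfrc, the transferrin receptor gene that dividing cells also express, at 59.9% to 99.9% over the 12 libraries. The other 8, among them haemoglobin genes, summed to 6.17 to 166 CPM with and 1.30 to 37.5 CPM without Dox in the independent tumours, and to 0.506 to 186 CPM with and 4.498 to 10.6 CPM without Dox in the evolving tumours. In VTL-21 they had 186 CPM with Dox and 7.46 CPM without.

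**Figure D5:**
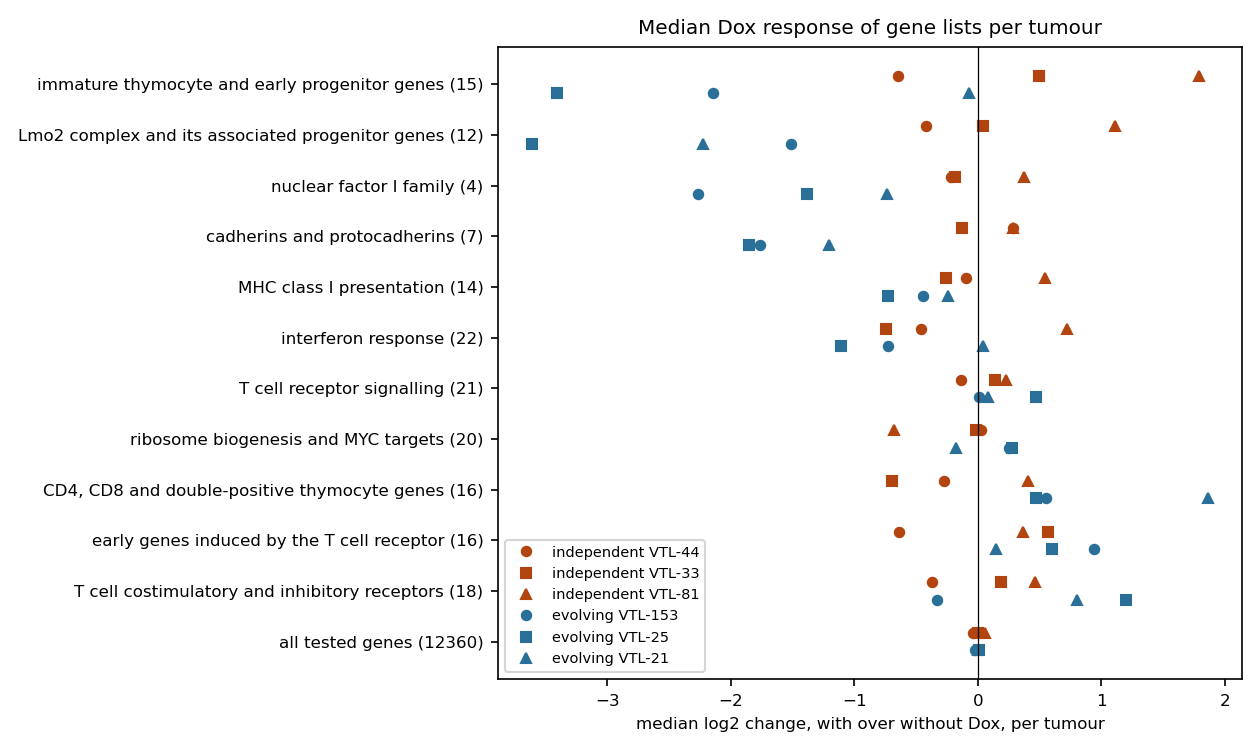
Median log2 change with over without Dox (x axis) of 11 gene lists and of all tested genes, 1 point per tumour, with the number of tested genes in brackets. For the LMO2 complex genes, Lmo2 itself included, the independent tumours (orange) lie at 0.04, −0.42 and 1.11 and the evolving tumours (blue) at −2.23, −3.61 and −1.51. The classes also lie apart for the nuclear factor I, cadherin and double-positive thymocyte lists. They overlap for the immature thymocyte, MHC class I, interferon, T cell receptor signalling, MYC target, early induced and costimulatory receptor lists.

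Genes of later thymocyte stages leaned the other way without a call. Of 16 tested genes of CD4, CD8 and double-positive thymocytes, 12 had estimates below 0, against 49.6% of all tested genes, with a median of −0.86. Cd8b1 and Cd8a, the chains of the CD8 coreceptor, had −2.80 and −2.35, and Rag1 and Rag2, the recombinase that assembles receptor genes, −2.74 and −2.96. For Cd4 the estimate was −0.91, and for Dntt, which adds bases to receptor junctions, it was 0.49. The smallest adjusted p of the list was 0.142, for Cd8b1. Genes induced early by the antigen receptor had a median of −0.86 over 16 tested, 11 of them below 0, from Irf4 (−3.16) and Nr4a1 (−1.74), which mark receptor signal strength, to the phosphatase gene Dusp2 (1.65). The kinases, adaptors and CD3 chains of the receptor itself had a median of −0.12 over 21. Fyn, a Src-family kinase of the receptor, had the smallest p of this list at −1.48 (SE 0.22, adjusted p = 0.0845) without passing, and Plcg1, the phospholipase downstream, had 0.49.

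No gene passed in the lists of cytokine signalling and lineage factors, where the adjusted p of the genes named ran from 0.142 for Il2rb to 0.863 for Ikzf4. In the gamma chain receptor group (median −0.05 over 9), Il2rb, a signalling chain of the IL-2 and IL-15 receptors, had −4.65 and Il9r, which binds IL-9, 1.49. JAK-STAT5 genes had a median of 0.23 over 12, with Stat3 at 0.81 and Stat5a at 0.68. T lineage commitment factors had a median of 0.04 over 15, with Runx3, a CD8 lineage factor, highest at 3.75, Tox2 lowest at −1.24, and Satb1, a chromatin organiser of thymocytes, at −1.04. The 5 Ikaros family genes had a median of −0.24, with Ikzf3, which encodes Aiolos, at −2.53 and Ikzf4, which encodes Eos, at −0.70. Among E proteins and their inhibitors (median −0.82 over 6), the inhibitors Id3 and Id2 had −3.23 and −2.39. Without VTL-21, 2 genes of that list passed, Id3 (−3.91, adjusted p = 0.0449) and the E protein gene Tcf4 (6.90, adjusted p = 0.00311), against an estimate of 4.73 for Tcf4 over all tumours. No gene of that list passed when any other single tumour was left out. Notch pathway genes had a median of −0.21 over 12, with Heyl, a Notch target, at −0.84 and the ligand gene Jag2 at 1.42.

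Families of the genes that passed were followed as well. Of the lists below, only the cadherin list held 2 genes that passed, Pcdh7 and Clstn1. In no other did a further member pass. The adjusted p of the members named that did not pass ran from 0.0877 for P3h4 to 0.990 for Col1a1. The 7 tested genes of the cadherin list had a median of 0.86 and included Pcdh7 and Clstn1, whose differences had opposite signs, and Cdh23 (5.68) and Fat4 (7.80), 2 large cadherins. Other adhesion molecules had a median of 0.43 over 18, with the integrin chain gene Itga6 at −1.50 and Icam2, an integrin ligand, at −0.95. Proteoglycan genes had a median of 0.95 over 9, and Cd44, a hyaluronan receptor, had 4.31. In the nuclear factor I family (median 1.38 over 4), Nfic had 2.33 and Nfia 0.44, a value that turned below 0 in 4 of 18 settings. The SMYD list (median −0.43 over 5) held Smyd4 at −0.49 and Smyd5 at −0.43, and the relatives of Trim36 (median 1.83 over 3) were Mid1, a microtubule-bound ligase, at 1.83 and Trim46 at 1.31. Forkhead genes had a median of −0.02, with Foxo3, a relative of Foxo1, at 0.90. In the collagen list (median −0.14 over 13), P3h4 and Fkbp10, 2 factors of collagen maturation in the endoplasmic reticulum, had −6.63 and −6.64, while of the type I chain genes Col1a2 had −4.42 and Col1a1 −0.14. P3h4 passed without VTL-21 (−5.72, adjusted p = 0.0287), but not when any other single tumour was left out (adjusted p up to 0.314).

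Growth, survival and immune lists likewise held no gene that passed, with adjusted p from 0.0845 for Irs2 to 0.842 for Birc5 among those named. PI3K and FOXO1 pathway genes had a median of −0.18 over 21, with the adaptor gene Irs2 at −3.04. BCL2 family genes had 0.18 over 12, with the survival genes Bcl2l2 at 4.84 and Bcl2l1 at −1.20. Cell cycle inhibitors had 0.66 over 9, with Cdkn2c at 1.08 and Cdkn2d at 0.70, both inhibitors of CDK4 and CDK6. Genes of DNA replication and mitosis had a median of 0.01 over 20, and Cdc20 (−0.35) and Birc5 (−0.21), which act in mitosis, had the smallest p among them. Ribosome biogenesis genes driven by MYC had small estimates, 18 of 20 of them below 0, against 49.6% of all tested genes, with a median of −0.38. Gnl3 had −0.61 and Npm1 −0.67. The p53 targets had −0.17 over 14, with Phlda3 at 2.53 and Sesn2 at −1.04. Interferon response genes had a median of 0.44 over 22, with Oasl1 highest at 3.52 and Ifi202b lowest at −6.55, and Usp18, which removes ISG15, at 1.72. MHC class I presentation genes had 0.53 over 14, 11 of them above 0, against 50.4% of all tested genes. H2-K1, a class I heavy chain, had 2.08 and Tap2, a peptide transporter chain, 0.66. None of the members of the 8 marker lists passed, and their median differences were −2.46 for B cell, 2.94 for myeloid, 1.12 for erythroid, −0.14 for stromal, 0.14 for endothelial, −1.25 for natural killer, 1.28 for dendritic and −0.24 for T cell markers. Only 5 of 12 stromal, 4 of 10 endothelial and 4 of 12 natural killer markers had counts to use. Thy1, the highest of the stromal markers, is also in the T cell list.

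Just short of the threshold came genes with patterns like those of the 15. Among the positive ones were Chil5, a chitinase-like gene (8.80, SE 1.12, adjusted p = 0.0788), Sstr2, a somatostatin receptor (6.46, SE 0.90, adjusted p = 0.0812), and Repin1, a zinc finger gene (8.02, SE 1.12, adjusted p = 0.0812). Chil5 averaged 0.375 ± 0.218 CPM with Dox and 0.337 ± 0.257 CPM without Dox in the independent tumours, and 0.200 ± 0.136 CPM with Dox and 80.5 ± 51.1 CPM without it in the evolving tumours (SD, n = 3 each). Pdlim7, a cytoskeletal adaptor, had 2.77 (SE 0.38, adjusted p = 0.0812), Ankrd27, an endosomal trafficking protein gene, 1.52 (SE 0.20, adjusted p = 0.0788), and Prkag2, a regulatory subunit of the energy sensor AMPK, 1.52 (SE 0.21, adjusted p = 0.0812). The negative ones were Sbf2, a myotubularin-related gene (−4.98, SE 0.60, adjusted p = 0.0620), Rtn4rl1, a Nogo receptor relative (−4.53, SE 0.55, adjusted p = 0.0620), Pydc3 (−4.50, SE 0.56, adjusted p = 0.0620), the acyl-CoA synthetase gene Acsf2 (−3.53, SE 0.44, adjusted p = 0.0620), the calcium-dependent kinase gene Camk2d (−1.92, SE 0.26, adjusted p = 0.0788) and the calcium channel gene Cacna1e (−5.004, SE 0.66, adjusted p = 0.0812). Sbf2 averaged 125 ± 27.1 CPM with Dox and 136 ± 18.1 CPM without Dox in the independent tumours, and 104 ± 39.9 CPM with Dox and 3.74 ± 2.13 CPM without it in the evolving tumours (SD, n = 3 each), which places its evolving level without Dox apart from the other 3 groups.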

How the data were processed

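Per the submitters' processing notes, the authors aligned reads with STAR 2.5.2b to mm10 and counted them per gene with featureCounts. The strand setting, annotation and filters are not given in the sources used here. The deposited values used were raw counts per gene, not normalised, for 12421 genes; 42 other per-sample columns were not used. Libraries were made with NEBNext Ultra II from RNA of integrity above 8, per the labels' protocols.

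Counts were tested with edgeR 4.0.16 (R 4.3.3): TMM factors, the default filter (minimum count 10, 12360 genes kept), robust quasi-likelihood fits, a tumour block and a Dox term per class, with Benjamini-Hochberg adjustment over all genes and a threshold of 0.05. Each adjusted p is from this test unless a tool is named. The SE is the size of the difference divided by the square root of F and is inexact at few counts. CPM used TMM-scaled library sizes; changes per tumour are of log2(CPM + 0.5). The numbers were taken to pair the samples because the titles give each tumour's number and the series design describes tumours before and after Dox; whether both VTL-25 libraries came from one leukaemia, given their different leading receptor segments, could not be settled, nor whether VTL-25 and VTL-153 are separate leukaemias. Deviations of partner libraries from their group means correlated across genes at 0.698, 0.633 and 0.505 in the independent tumours, and at 0.181, 0.0202 and 0.166 in the 3 evolving tumours, in ascending tumour number.

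Named were Lmo2, Ikzf1, all genes past the threshold, Cd28, the next 6 per direction by p (mean log2 CPM of at least 1, no receptor segments, predicted genes or pseudogenes), and of each of 28 gene lists the members past the threshold and up to 2 more with the smallest p; further list members were named after their values were seen, and a few genes under this rule are not reported here. The members, lists and 8 marker lists were chosen with earlier results of these data known. Positions are from GENCODE M21, which holds 12379 of the identifiers, and promoters from RefSeq (GRCm38.p6). Alternatives were RLE factors, DESeq2 1.42.0, limma 3.58.1 voom with and without weights per class, other filters, a fit that was not robust, no replicate block, the block as a random effect, receptor segments left out, and tumours left out. The code was tested on simulated data.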

Additional observations from a re-analysis of the deposited data

Results flagged for a closer look

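Of the 83 named genes, 15 were picked out because their Dox responses differed between the independent and the evolving tumours in a test of the difference itself, at an adjusted p under 0.05 by edgeR. The log2 differences, independent minus evolving, were Mdga1 (7.80), Cpa3 (9.35), Nfix (4.87), Pcdh7 (9.61), Fam102b (2.32) and Trim36 (3.43), and Sdc1 (−5.11), Arhgef10l (−2.88), Foxb1 (−4.72), Icos (−4.85), Pou6f1 (−2.18), Smyd1 (−6.14), Clstn1 (−3.68), Rere (−1.81) and Ctla4 (−5.51). All rest on 3 tumours per class. In VTL-25 the library with Dox was led by another receptor beta segment than the library without. Without Dox the 3 evolving tumours shared their leading and next segments.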

How the results depend on the processing

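The count of 15 genes was 14 to 16 with RLE factors, no filter, a minimum count of 50, a fit that was not robust or receptor segments left out. It was 549 by DESeq2 and 67 by limma voom, with 15 and 14 of the 15 among them. With voom weighted per class it was 0 (1295 genes at an unadjusted p under 0.05), the 15 having adjusted p of 0.0502 to 0.0676. With no replicate block it was 1, and with the tumour pairing as a random effect (limma) 0 (1050 unadjusted). Leaving out each tumour in turn gave 0 to 58, without both VTL-44 and VTL-81 it was 0 (423 unadjusted, edgeR), and without both VTL-25 and VTL-21 it was 6, none among the 15. The causes were not tested, though fewer tumours leave fewer degrees of freedom. All 15 kept their sign in all 18 settings. The Lmo2 difference passed by DESeq2 (6.78, adjusted p = 0.0235) and by no other setting, and was 3.94 to 7.87 when each tumour was left out.

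Values near 0 changed sign. Leaving out each tumour in turn gave −0.52 to 0.51 for Ikzf1, −0.57 to 1.17 for Nfia and −0.72 to 0.11 for Smyd5. Ikzf1 was 0.24 and Smyd5 0.0913 without both VTL-44 and VTL-81, and Ikzf1 was 0.97 without both VTL-25 and VTL-21. Nfia was −0.0742 by voom, −0.0737 by weighted voom and −0.0217 with no replicate block. Over the 15 genes and 18 settings, 118 values still passed and 152 did not. List medians moved by more than the spread between tumours in 26 cases and by less in 442. Depth limits Mdga1 and Pcdh7, at 1 to 23 counts in each independent library, and other genes of few counts such as Chil5 (1 to 12). Few counts in evolving libraries limit others of the 15 as well. Cpa3 held 0 to 9 counts in each with Dox. Without Dox Smyd1 held 1 to 16, Icos 5 to 33, Ctla4 7 to 34, and Clstn1 2 in VTL-21.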
